A study of Homo sapiens with 18 samples.

Results

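The genes described here encode collagens, laminins and integrins, together with the fibronectin gene FN1, the nidogen gene NID1, the perlecan gene HSPG2 and SPARC. They were taken by symbol from the deposited expression table, where 37 of 10975 genes met the rule. Of these, 15 are collagen chains, 7 are laminin chains, 7 are integrin chains and 4 are the genes named above. The other 4 carry symbols of the same form but encode no chain. NID2, also named in the rule, is not listed.

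RNA was measured by RNA-Seq in H1, an established human embryonic stem cell line kept in E8 medium on Matrigel, before and at 12, 24 and 48 h of treatment with Wnt3a at 1 nM. The 16 libraries form 4 series of 4 times each: a first WT series, a second WT series called WT rep2, and the mutant clones dZF1 and dZF2. Both clones were derived from H1 with CRISPR-Cas9 so that both SP5 alleles lack the part coding for the zinc fingers; each is the progeny of 1 cell and still makes some truncated SP5 protein. The tables of the study describe the untreated libraries as kept in Wnt storage buffer. SP5 ChIP-Seq peaks were also deposited, under labels for cells without Wnt3a and for cells at 24 h of Wnt3a.

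Laminins and type IV collagens assemble with nidogen and perlecan into the basement membrane, the sheet on which epithelial cells sit. Fibrillar collagens and fibronectin build the looser interstitial matrix. Integrins are receptors made of an alpha and a beta chain, and the alpha chain largely sets the ligand: alpha 6 with beta 1 binds laminin, while alpha 5 with beta 1 binds fibronectin. Human pluripotent cells carry alpha 6 beta 1 and attach to laminin, and cells that leave the epithelial state during gastrulation are known to remodel both the matrix and its receptors.

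Levels in the first WT series are RPKM, reads scaled to transcript length and library size, so that they can be compared between genes. Each series has 1 library at each time, the number of reads behind the values is unknown, and no p-value is given for any change within a series. The pluripotency genes fixed as a check were all listed, 10 of 10, with a summed RPKM of 3246.6 at 0 h and 2260.9 at 48 h. NANOG was low among them, at 3.3, 3.1, 5.9 and 3.4 RPKM at 0, 12, 24 and 48 h. All 7 definitive endoderm markers were listed, and their sum went from 5.8 to 934.4 RPKM. Of the 7 mesendoderm markers 6 were listed, with sums of 2.3 RPKM at 0 h and 461.6 RPKM at 24 h. Markers of other cells were mostly not listed: 2 of 10 for fibroblasts (THY1 and PDGFRB), with a sum between 96.1 and 200.3 RPKM, 2 of 5 for endothelium (KDR and TEK), between 31.0 and 39.2 RPKM, 3 of 8 for parietal and visceral endoderm, between 0.6 and 19.1 RPKM, and 0 of 6 for trophoblast. THY1 made up nearly all of the fibroblast sum, with 195.7 RPKM at 0 h and 95.4 RPKM at 48 h, while PDGFRB was at 4.6 and 3.3 RPKM. The sum is therefore no measure of fibroblasts. The fibroblast genes LUM, DCN, PDGFRA and POSTN and the endothelial genes PECAM1 and CDH5 were not among the listed genes. The part of these shifts in the matrix values was not tested, and in bulk RNA fewer cells of a type and less RNA per cell cannot be told apart.

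Matrix and adhesion genes moved late. Each change is given relative to 0 h, on a log2 scale after adding 1 to every RPKM. At 12 h, 0 of 37 members were at least 2-fold higher, against 1.22% of all listed genes, and 1 was at least 2-fold lower, against 0.738%. At 24 h, 3 members were at least 2-fold higher (background 2.62%) and 1 was lower (1.36%). At 48 h, 10 members, or 27.0%, were at least 2-fold higher, against 4.87% of all listed genes, and 3 members, or 8.11%, were at least 2-fold lower, against 2.95%. The count of higher members was 5 with a pseudocount of 5 (2.22% of all genes) and 6 of the 22 members that reach 10 RPKM (3.97% of such genes). The genes higher at 48 h were FN1, ITGA5, LAMB1, ITGB1BP1 and the collagen genes COL6A1, COL6A2, COL5A2, COL2A1, COL4A6 and COL13A1. The genes lower at 48 h were ITGA6, LAMA4 and COL14A1. Genes are listed only if they reach 4.0 RPKM in some library. Among the higher members, COL2A1 and COL4A6 reached it only at 48 h, COL13A1 only at 24 and 48 h, and ITGB1BP1 only in Wnt3a. Among the lower members, LAMA4 reached it only at 0 h and COL14A1 only at 0 and 12 h. The listing and the calls of these genes are therefore not independent. The shares of all listed genes come from genes listed by the same rule. The summed RPKM of all members was 662.2 before treatment and then 668.4, 686.8 and 913.8 in time order, and their share of the RPKM of all listed genes went from 0.169% to 0.237%. FN1 alone added 83.4 RPKM.

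Each family held members that moved either way. The median log2 change at 48 h was 0.76 for the 15 collagens, 0.25 for the 7 laminins and 0.21 for the 7 integrins, beside 0.00 for all listed genes, and the collagens ranged from -1.73 to 2.16. The difference between the families was not tested. Of the collagens, 8 were higher by more than 0.5 on the log2 scale, 2 were lower by more than 0.5 and 5 lay between. Of the laminins 5 of 7, and of the integrins 4 of 7, stayed within 0.5 of the 0 h library. The plot of RPKM by time shows these courses gene by gene.

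**Figure D1:**
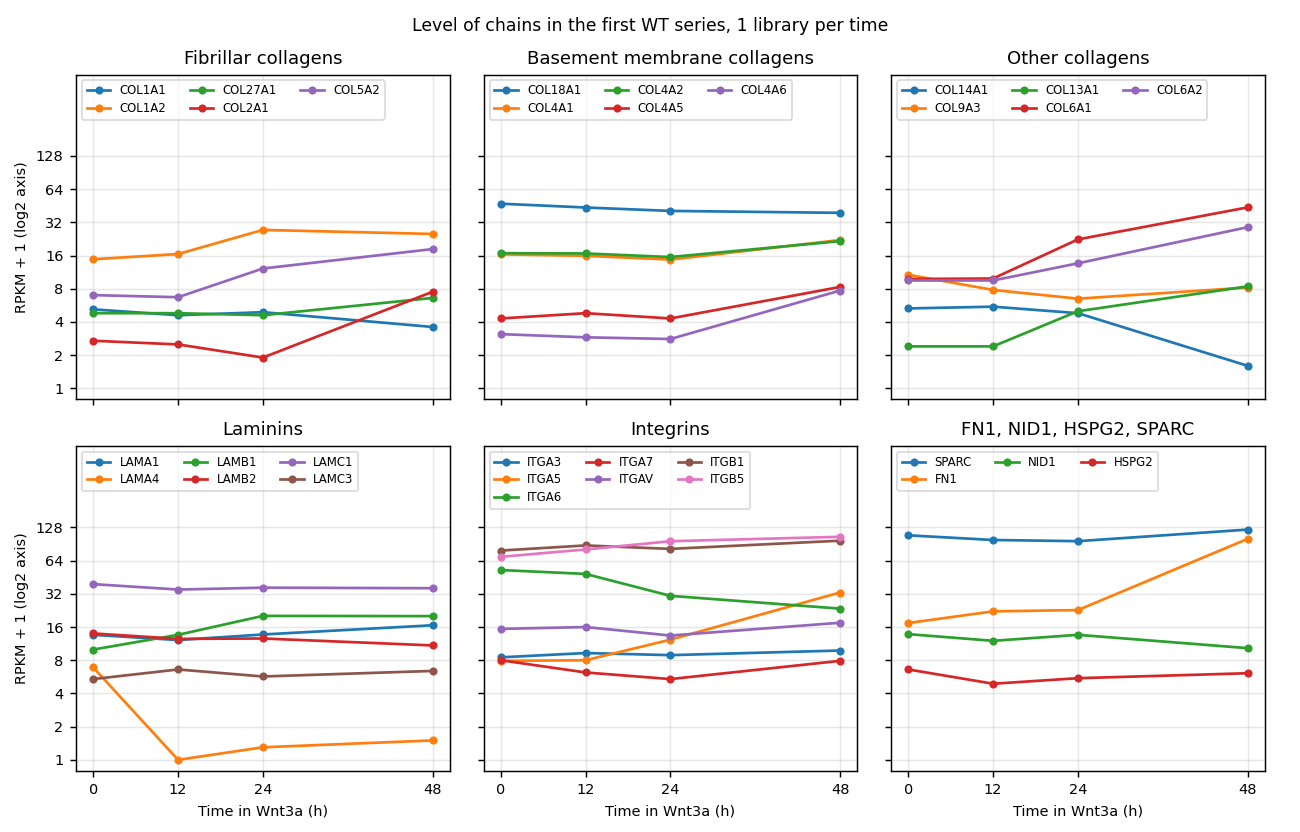
RPKM plus 1 (log2 axis) against hours in Wnt3a for 28 chains and for FN1, NID1, HSPG2 and SPARC in the first WT series, 1 library per point. FN1 went from 16.4 to 99.8 RPKM, ITGA5 from 6.9 to 31.9, and ITGA6 fell from 51.6 to 22.5, while most laminins and the pair COL4A1 and COL4A2 stayed close to their 0 h levels.

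Fibronectin and its receptor chain rose together between 24 and 48 h. FN1, which encodes the fibronectin that cells assemble into fibrils, started at 16.4 RPKM, stood at 21.2 and 21.8 RPKM after 12 and 24 h, and reached 99.8 RPKM in the last library. It was above 53.8% of the listed genes at 0 h and above 94.0% at 48 h. ITGA5, the alpha chain of the main fibronectin receptor, was at 6.9, 7.0, 11.3 and 31.9 RPKM at the same times. Of the gain from 0 to 48 h, FN1 had made 6.47% by 24 h and ITGA5 17.6%. The log2 changes at 48 h were 2.53 for FN1 and 2.06 for ITGA5, the highest and the third of all members.

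The laminin receptor chain went the other way. ITGA6 was at 51.6 RPKM at 0 h, the highest of the 5 listed alpha chains, and then at 47.5, 29.7 and 22.5 RPKM. It fell by 1.16 on the log2 scale at 48 h, and 75.3% of the loss was in place at 24 h in this series. In WT rep2 ITGA6 was not yet lower at 24 h, and dZF1 and dZF2 had 27.3% and 36.7% of their loss, beside 22.1% and 18.1% of their ITGA5 gain. The ratio of ITGA5 to ITGA6 RPKM went from 0.134 over 0.147 and 0.380 to 1.42 in the last library, so the order of both chains was exchanged there.

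The remaining alpha chains moved little. ITGAV, which pairs with several beta chains to bind vitronectin and fibronectin, had between 12.4 and 16.5 RPKM. ITGA3 and ITGA7, both laminin receptor chains, lay between 7.5 and 8.8 RPKM and between 4.4 and 7.0 RPKM. The summed RPKM of the 5 alpha chains was 87.4 at 0 h and 86.6 at 48 h, with 65.7 at 24 h. ITGA6 made up 59.0% of that sum at 0 h and 26.0% at 48 h, and ITGA5 7.89% and 36.8%. The sum was thus about the same at both ends of the course while its make-up was not.

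Both listed beta chains were abundant. ITGB1, the shared partner of alpha 3, 5, 6 and 7, was at 78.0, 86.9, 80.8 and 96.1 RPKM. ITGB5, a partner of alpha V in vitronectin binding, was at 68.3, 79.8, 95.0 and 104.3 RPKM, higher in each later library, with a log2 change of 0.60 at 48 h. The beta chains together were at 146.3 RPKM at 0 h and 200.4 RPKM at 48 h, above the alpha chains at every time. Alpha and beta chains that are not listed are left out of both sums.

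Among laminins, a beta chain changed while the gamma chain did not follow. LAMB1 was at 9.0, 12.6, 19.2 and 19.1 RPKM, a log2 change of 1.01 at both 24 and 48 h. LAMB2, the alternative beta chain, was at 13.0, 11.5, 11.6 and 9.9 RPKM. LAMB1 therefore made up 40.9% of the summed beta chain RPKM at 0 h and 65.9% at 48 h. LAMC1, the gamma chain found in most laminins, was the highest laminin gene at every time, at 38.2, 34.0, 35.4 and 35.0 RPKM. LAMA1, an alpha chain of the early embryo, was at 12.6, 11.2, 12.7 and 15.6 RPKM. LAMC3, a minor gamma chain, was at 4.4, 5.6, 4.7 and 5.4 RPKM. The ratio of LAMB1 to LAMC1 went from 0.236 to 0.546.

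**Figure D2:**
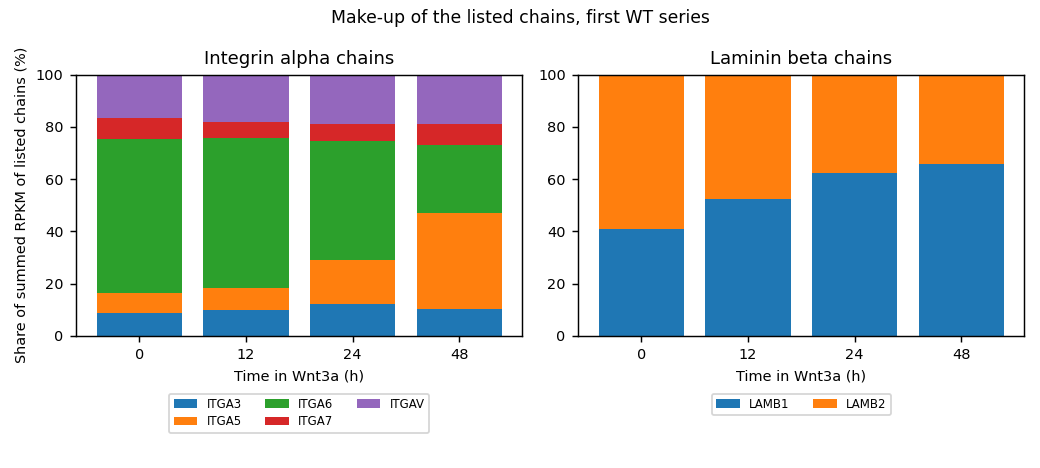
Share of the summed RPKM (percent, vertical axis) held by each listed integrin alpha and laminin beta chain at 0, 12, 24 and 48 h in the first WT series, 1 library per bar. ITGA6 gave way to ITGA5 among integrin alpha chains (59.0% to 26.0% and 7.89% to 36.8%) and LAMB2 to LAMB1 among beta chains (59.1% to 34.1% and 40.9% to 65.9%).

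LAMA4, an alpha chain of mesenchymal and vascular laminins, was at 5.9 RPKM at 0 h, is listed at 0 at 12 h, and was at 0.3 and 0.5 RPKM at 24 and 48 h. This gene alone gives the counts of lower members at 12 and 24 h, and its difference rests on the 0 h library. Without it 0 members were at least 2-fold lower at 12 h and at 24 h, and 2 at 48 h. An exact 0 in such a table can be a failed estimate, which was not tested.

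Fibrillar collagens did not move as a set. COL1A2, the alpha 2 chain of type I collagen, was at 13.8, 15.5, 26.3 and 24.1 RPKM, most of its gain coming between 12 and 24 h. COL1A1, the chain that is present in excess in the type I trimer, was at 4.2, 3.6, 3.9 and 2.6 RPKM. The ratio of COL1A2 to COL1A1 RPKM was 3.29 at 0 h and 9.27 at 48 h, so both chains of this collagen went in opposite directions. COL1A1 reached 4.0 RPKM, the limit for listing, only at 0 h. COL5A2, a chain of the type V collagen that nucleates fibrils, was at 6.0, 5.7, 11.2 and 17.3 RPKM. COL2A1, the cartilage collagen that is also made in early embryos, was at 1.7, 1.5, 0.9 and 6.5 RPKM, low values in which the change rests on the 48 h library. COL27A1 went from 3.8 to 5.6 RPKM.

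Type VI collagen, which forms beaded filaments, had larger changes than the chains of types I and IV, with log2 values of 2.16 for COL6A1 and 1.61 for COL6A2. COL6A1 was at 8.8, 8.9, 21.4 and 42.7 RPKM and COL6A2 at 8.5, 8.5, 12.6 and 27.9 RPKM. Their genes are neighbours on chromosome 21, 93062 bases apart in GRCh37. The ratio of COL6A1 to COL6A2 took the values 1.04, 1.05, 1.70 and 1.53 in time order, so the chains were nearly equal at first and COL6A1 led afterwards. COL13A1, a transmembrane collagen of adhesion sites, was at 1.4, 1.4, 4.0 and 7.4 RPKM.

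The common pair of basement membrane collagens showed little of this rise. COL4A1 was at 15.4, 14.9, 13.7 and 21.1 RPKM and COL4A2, its partner in the common type IV trimer, at 15.8, 15.7, 14.5 and 20.6 RPKM. Their ratio lay between 0.945 and 1.02 at all 4 times. The rarer pair COL4A5 and COL4A6 was at 3.3 and 2.1 RPKM at 0 h, and at 7.3 and 6.7 RPKM at 48 h, with ratios between 1.09 and 2.0. COL18A1, the source of endostatin, had the highest RPKM of all collagens at 0 h, 46.2, and 42.6, 39.6 and 38.0 RPKM afterwards.

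Both type IV pairs are transcribed away from each other from start sites that lie close together, and the windows below show the stretch between them or part of it. By RefSeq start sites (GRCh38.p14) COL4A1 and COL4A2 start 127 bases apart, and COL4A6 and COL4A5 start 380 bases apart. Each sequence runs from 250 bases before to 49 bases after the start site of the gene named. Capitals mark GGGCGG, the GC box bound by the SP family, and GGGAGG, on either strand, with overlapping matches counted separately.
COL4A2, chr13:110307034-110307333, plus strand: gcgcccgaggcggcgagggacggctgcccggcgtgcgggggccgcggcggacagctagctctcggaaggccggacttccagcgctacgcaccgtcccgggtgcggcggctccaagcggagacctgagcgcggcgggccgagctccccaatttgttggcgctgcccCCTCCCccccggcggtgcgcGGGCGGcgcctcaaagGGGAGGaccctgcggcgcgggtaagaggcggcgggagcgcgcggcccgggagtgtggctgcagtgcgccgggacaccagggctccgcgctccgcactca
COL4A5, chrX:108439588-108439887, plus strand: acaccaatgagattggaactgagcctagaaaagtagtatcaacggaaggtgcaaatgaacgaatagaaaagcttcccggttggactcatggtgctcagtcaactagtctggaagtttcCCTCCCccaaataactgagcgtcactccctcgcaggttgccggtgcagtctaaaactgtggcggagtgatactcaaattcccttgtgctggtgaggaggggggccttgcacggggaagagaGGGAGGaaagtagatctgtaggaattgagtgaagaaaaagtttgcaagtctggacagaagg
The COL4A2 window holds 1 GGGCGG and 2 GGGAGG, and it also contains the start site of COL4A1. The COL4A5 window holds 0 GGGCGG and 2 GGGAGG.

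The genes at the centre of the receptor and ligand change are shown in the same way, since FN1 and ITGA5 are the members that rose most among those with a promoter in the RefSeq table and ITGA6 fell. LAMB1 is added as the laminin chain that rose.
FN1, chr2:215436019-215436318, minus strand: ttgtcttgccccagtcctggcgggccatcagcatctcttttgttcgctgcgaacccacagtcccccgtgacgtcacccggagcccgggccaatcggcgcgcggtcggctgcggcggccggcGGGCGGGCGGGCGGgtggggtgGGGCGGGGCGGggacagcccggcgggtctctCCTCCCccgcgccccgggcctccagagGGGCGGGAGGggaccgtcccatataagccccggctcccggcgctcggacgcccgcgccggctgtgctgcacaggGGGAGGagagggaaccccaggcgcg
ITGA5, chr12:54419217-54419516, minus strand: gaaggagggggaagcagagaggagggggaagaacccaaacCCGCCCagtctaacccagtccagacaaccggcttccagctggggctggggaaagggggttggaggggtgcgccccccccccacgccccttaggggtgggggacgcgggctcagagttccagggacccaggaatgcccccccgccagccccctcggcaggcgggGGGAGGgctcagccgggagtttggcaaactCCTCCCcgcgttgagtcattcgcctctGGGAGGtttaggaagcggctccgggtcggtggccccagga
ITGA6, chr2:172427336-172427635, plus strand: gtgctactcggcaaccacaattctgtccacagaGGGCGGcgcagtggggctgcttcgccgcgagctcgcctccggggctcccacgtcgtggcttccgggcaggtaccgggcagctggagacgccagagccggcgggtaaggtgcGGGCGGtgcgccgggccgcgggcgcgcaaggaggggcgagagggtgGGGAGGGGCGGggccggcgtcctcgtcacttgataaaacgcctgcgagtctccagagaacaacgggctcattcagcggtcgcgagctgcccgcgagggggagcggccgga
LAMB1, chr7:108003112-108003411, minus strand: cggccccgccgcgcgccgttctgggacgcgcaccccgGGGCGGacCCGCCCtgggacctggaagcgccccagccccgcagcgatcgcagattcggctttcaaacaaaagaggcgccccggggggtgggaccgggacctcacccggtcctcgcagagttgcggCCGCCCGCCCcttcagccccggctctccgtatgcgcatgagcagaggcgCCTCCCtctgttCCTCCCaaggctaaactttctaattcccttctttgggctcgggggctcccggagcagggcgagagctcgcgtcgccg
FN1 has 6 matches to GGGCGG and 3 to GGGAGG, ITGA5 has 1 and 3, ITGA6 has 3 and 1 in this window, and LAMB1 has 4 and 2. A promoter was found for 25 of the 37 members, and at least 1 window of the gene held GGGCGG in 19 of them (76.0%) and GGGAGG in 22 (88.0%). Among 8739 listed genes with a promoter the shares were 78.9% and 66.0%, and among all 35116 windows they were 45.0% and 49.3%. The share with GGGCGG was thus near that of all listed genes. Among the members without an entry in the table were ITGA7, ITGA3, COL1A1, COL1A2, COL2A1, COL5A2, COL6A1, COL9A3, COL14A1, LAMA1 and LAMC3.

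Of the genes named singly in the rule, only FN1 changed 2-fold. SPARC, which binds collagen and is secreted in quantity by early embryonic cells, had the highest RPKM of all members at 0 h, with 107.6, 97.5, 95.1 and 121.4 RPKM. NID1, which links laminin to type IV collagen, was at 12.8, 11.0, 12.6 and 9.3 RPKM. HSPG2, the heparan sulfate proteoglycan perlecan, was at 5.6, 3.9, 4.5 and 5.1 RPKM.

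Other genes of the families were also lower at 48 h, but among them only COL14A1 by at least 2-fold. COL14A1, a fibril-associated collagen, was at 4.3, 4.5, 3.8 and 0.6 RPKM, a change that rests on the 48 h library and on low levels. COL9A3, also fibril-associated, was at 9.7, 6.8, 5.5 and 7.2 RPKM, lowest at 24 h.

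The 4 genes that share the naming pattern without being chains are ITGB1BP1, an adaptor that binds the beta 1 integrin tail, ITGB1BP3, now NMRK2, a nicotinamide riboside kinase, ITGB3BP, a centromere protein, and COL4A3BP, now CERT1, a ceramide carrier. ITGB1BP1 was at 3.1, 7.0, 6.8 and 9.1 RPKM and was thus among the earliest to be higher, with a log2 change of 0.96 at 12 h. The other 3 changed by -0.17 to 0.26 on the log2 scale at 48 h.

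Some genes that work on the same matrix moved. Of all listed genes, 4.87% were at least 2-fold higher at 48 h and 2.95% were lower. Of 18 listed genes for collagen modification and cross-linking, 2 were at least 2-fold higher at 48 h and 1 was lower. In a list of 18, counts of 2 and 1 are near those shares. PLOD2, a lysyl hydroxylase, went from 8.4 to 21.1 RPKM and LEPREL1, a prolyl 3-hydroxylase, from 7.1 to 28.9 RPKM, while PCOLCE, which aids procollagen cleavage, fell from 19.6 to 9.0 RPKM. Of 18 listed matrix glycoproteins and proteoglycans, 4 were at least 2-fold higher and 1 was lower. TNC, the tenascin of migrating embryonic cells, went from 2.4 to 32.0 RPKM and FBN2, a fibrillin, from 3.8 to 18.7 RPKM, and FBLN2 and MATN3 also passed 2-fold, while CTGF fell from 11.8 to 4.9 RPKM. Of 17 listed matrix proteases and inhibitors, 3 were at least 2-fold higher (MMP2, ADAMTS1 and ADAM19) and 0 lower. MMP2, a gelatinase, went from 19.7 to 51.4 RPKM. The difference of these lists from all listed genes was not tested.

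Of 18 listed adhesion proteins that link integrins to actin, such as talin and vinculin, 0 passed 2-fold in either direction, with a median log2 change of 0.13. With lists of this size and 4.87% and 2.95% of all genes past the limit, a count of 0 is near the background. The same held for 0 of 11 listed matrix receptors other than integrins, with a median of 0.00. Their summed RPKM lay between 596.5 and 697.2 and between 376.1 and 434.0 over the 4 libraries.

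The second WT series and the clones were deposited as a separate table of 497 genes that the authors had chosen for their response to Wnt3a, and 11 of the 37 members are in it. There each gene in WT rep2 is a fraction of its own highest RPKM in that series, and each clone is a ratio to the same RPKM, so the clones can be set against WT rep2 but levels cannot be compared between genes. The first WT series enters below only by its change from its own 0 h library. Because the genes were chosen for a response to Wnt3a, the changes over time in the first WT series are no independent support.

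The change at 48 h had the same direction in WT rep2 as in the first WT series for 10 of the 11 members (442 of all 497 genes). Of the 10 members in this table that passed 2-fold in the first WT series, 5 also did so in WT rep2, by the ratio of the 48 h to the 0 h library. FN1, ITGA6, LAMB1, COL13A1 and COL2A1 did not, with ratios of 1.72, 0.511, 1.89, 1.49 and 0.747. The matching share of all 497 genes is not given here, so no trait of the members is read from this count. On the scale of log2 of the fraction of the maximum plus 0.05, the members' median after 48 h was 1.54 (first WT series), 0.86 (WT rep2), 1.83 (dZF1) and 1.34 (dZF2). The medians of all 497 genes were 1.16, 0.65, 0.85 and 0.87 in the same order. The value was higher in the first WT series than in WT rep2 for 9 of 11 members, the exceptions being COL5A2 and ITGA6, and for COL1A2 both were 0.74. Among all 497 genes it was higher there for 266. The median gap between the WT series was 0.61, and that between the clones was 0.24, near the 0.67 and 0.28 of all 497 genes. COL2A1 was the member that differed in direction: the first WT series gave 1.71 and WT rep2 gave -0.39, while dZF1 and dZF2 gave 0.59 and 0.73.

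At 48 h FN1 was the member with the largest gap between the mean of both clones and WT rep2. In WT rep2 it was at 0.58, 0.70, 0.69 and 1.00 of its maximum at 0, 12, 24 and 48 h. In dZF1 it was at 0.50, 0.53, 0.72 and 2.09, and in dZF2 at 0.43, 0.51, 1.00 and 2.01. Both clones were thus below WT rep2 at 0 and 12 h and above it at 48 h, by ratios of 2.09 and 2.01. The change from 0 to 48 h was 0.74 in WT rep2, 1.96 in dZF1 and 2.10 in dZF2, but 2.32 in the first WT series. The clones therefore lay between the WT series, whose gap of 1.58 was larger than that between the clones and the mean of both WT series, 0.50.

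ITGA6 was lower in both clones than in WT rep2 at every time. The log2 ratio was furthest from 0 at 48 h, while the gap in level was widest at 24 h. It was at 0.92, 1.00, 0.95 and 0.47 in WT rep2, at 0.83, 0.84, 0.68 and 0.28 in dZF1, and at 0.90, 0.83, 0.68 and 0.30 in dZF2. The log2 ratios to WT rep2 at 48 h were -0.66 in dZF1 and -0.57 in dZF2. Relative to its own 0 h library the gene stood at -1.10 (first WT series) and -0.90 (WT rep2), against -1.42 (dZF1) and -1.44 (dZF2), so that here both clones lay outside the range of the WT series. In the first WT series ITGA6 was already lower at 24 h, by 0.76 on this scale, while in WT rep2 it was higher by 0.04.

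ITGA5 was at 0.39, 0.41, 0.39 and 1.00 in WT rep2, at 0.27, 0.38, 0.50 and 1.31 in dZF1, and at 0.36, 0.45, 0.49 and 1.08 in dZF2. All 3 series thus gained ITGA5 late, as the first WT series did. The ratio of ITGA5 to ITGA6, relative to 0 h, had risen at 48 h by a factor of 10.6 in the first WT series, 5.02 in WT rep2, 14.4 in dZF1 and 9.00 in dZF2. At 24 h its log2 change was 1.51, -0.05, 1.18 and 0.85 in the same order, so WT rep2 was the series without a shift at that time.

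**Figure D3:**
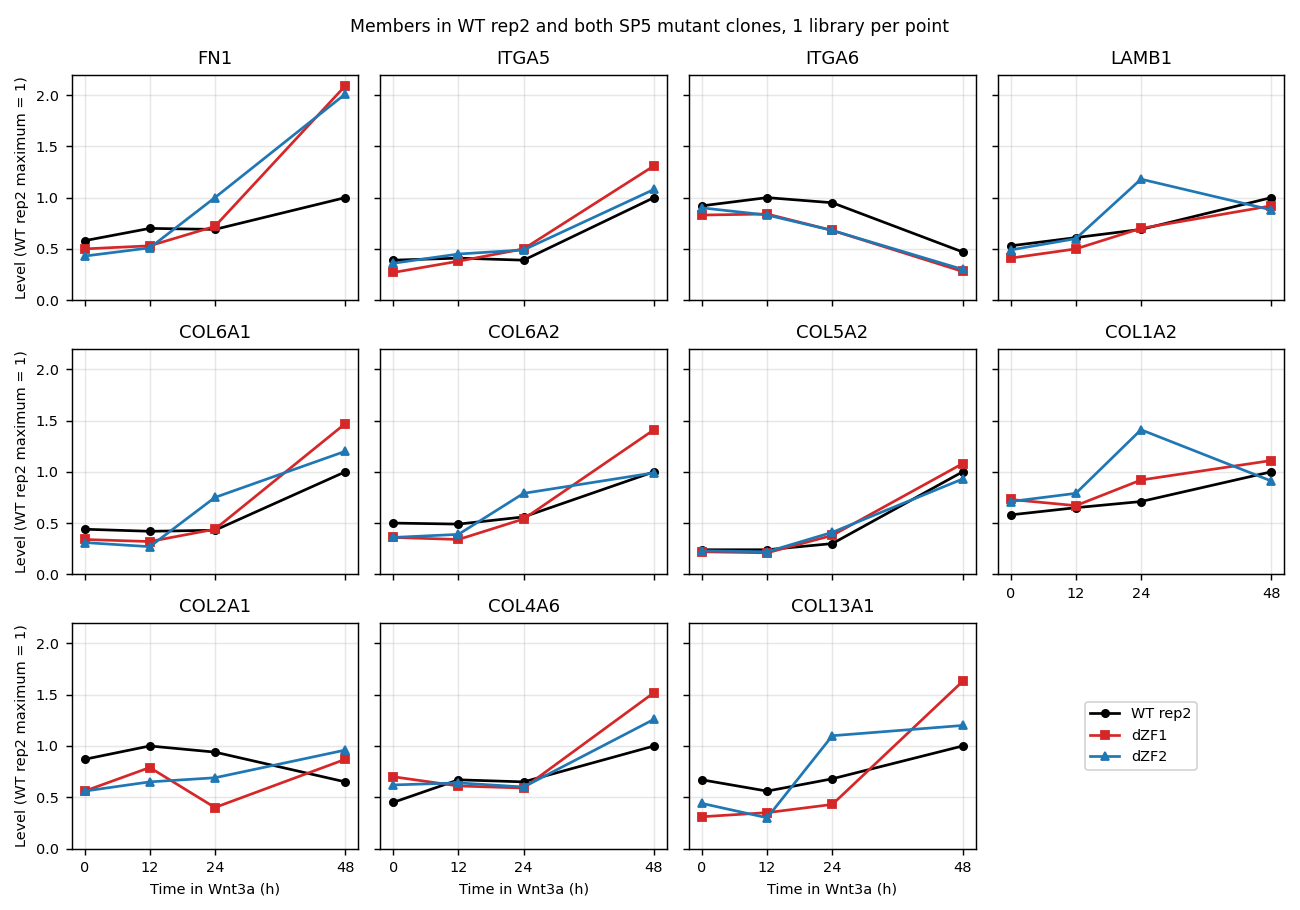
Level of the 11 members in WT rep2, dZF1 and dZF2 against hours in Wnt3a, with the highest WT rep2 value of each gene set to 1 and 1 library per point. FN1 reached 2.09 and 2.01 in the clones at 48 h, and ITGA6 was at 0.28 and 0.30 against 0.47 in WT rep2. At 24 h dZF2 was the highest of the series shown for LAMB1, COL1A2, COL6A1, COL13A1, FN1, COL6A2 and COL5A2.

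The type VI collagens were lower in the clones before and early in treatment and higher in most libraries later. COL6A1 was at 0.44, 0.42, 0.43 and 1.00 in WT rep2, at 0.34, 0.32, 0.44 and 1.47 in dZF1, and at 0.31, 0.27, 0.75 and 1.20 in dZF2. COL6A2 was at 0.50, 0.49, 0.56 and 1.00 in WT rep2, at 0.36, 0.34, 0.54 and 1.41 in dZF1, and at 0.36, 0.39, 0.79 and 0.99 in dZF2. COL6A2 in dZF2 at 48 h was thus level with WT rep2, while in dZF1 it was 1.41 of it. By 48 h COL6A1 had gained 2.01 in the first WT series, above both clones at 1.96 and 1.80.

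COL13A1 had the widest gap between the clones at 24 h. It was at 0.67, 0.56, 0.68 and 1.00 in WT rep2, at 0.31, 0.35, 0.43 and 1.63 in dZF1, and at 0.44, 0.30, 1.10 and 1.20 in dZF2. At 24 h the clones lay on opposite sides of WT rep2, with log2 ratios of -0.60 and 0.66. Its RPKM in the first WT series was at most 7.4, so it is among the lower members.

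The fibrillar collagens differed from each other again. COL5A2 was at 0.24, 0.24, 0.30 and 1.00 in WT rep2, at 0.22, 0.21, 0.38 and 1.08 in dZF1, and at 0.23, 0.22, 0.41 and 0.93 in dZF2, so that all 3 series were close at 0 and 12 h. COL1A2 was at 0.58, 0.65, 0.71 and 1.00 in WT rep2, at 0.73, 0.67, 0.92 and 1.11 in dZF1, and at 0.71, 0.79, 1.41 and 0.91 in dZF2. In dZF2 COL1A2 was highest at 24 h, as it was in the first WT series. COL2A1 was at 0.87, 1.00, 0.94 and 0.65 in WT rep2, at 0.56, 0.79, 0.40 and 0.87 in dZF1, and at 0.56, 0.65, 0.69 and 0.96 in dZF2, below WT rep2 in both clones until 24 h and above it at 48 h.

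LAMB1 was at 0.53, 0.61, 0.69 and 1.00 in WT rep2, at 0.41, 0.50, 0.70 and 0.92 in dZF1, and at 0.49, 0.60, 1.18 and 0.88 in dZF2. It was higher at 48 h than at 0 h in every series, and its change lay between 0.78 and 1.08 in all 4. COL4A6 was at 0.45, 0.67, 0.65 and 1.00 in WT rep2, at 0.70, 0.61, 0.59 and 1.52 in dZF1, and at 0.62, 0.64, 0.60 and 1.26 in dZF2. It was thus higher in the clones before treatment, unlike most members.

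The members were also counted at a 1.5-fold limit, with the share of all 497 genes in parentheses. At 0 h, 3 of 11 were past it in dZF1 (background 23.9%) and 1 in dZF2 (34.0%), and at 12 h 1 in dZF1 (33.0%) and 2 in dZF2 (35.2%). At 24 h, 0 were higher (28.2%) and 2 lower (12.9%) in dZF1, and 4 were higher (37.0%) and 0 lower (17.9%) in dZF2. At 48 h, 2 were higher (21.7%) and 1 lower (18.3%) in dZF1, and 1 was higher (21.9%) and 0 lower (18.9%) in dZF2. With each library first set against the 0 h library of its series, the members higher at 48 h were 6 in dZF1 (27.2% of all genes) and 4 in dZF2 (28.2%). The medians of all 497 genes at 24 h were 0.21 in dZF1 and 0.27 in dZF2 above WT rep2, beside 0.02 and 0.46 for the members, and relative to that median 1 member in place of 4 was higher in dZF2. The members' medians before treatment were -0.33 (dZF1) and -0.10 (dZF2), and those after 48 h were 0.39 and 0.11. Both clones are set against the same WT rep2 libraries, and with 3 cell lines no permutation of the labels could give a p below 0.33.

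Over all 4 series, the change at 48 h was higher in both clones than in both WT series for 0 of 11 members, against 15.9% of the 497 genes. It was lower in both clones for 3 members (ITGA6, COL1A2 and COL4A6), against 16.3%. For COL4A6 the values of dZF1 and WT rep2 were both 1.07 to 2 decimals. At 24 h it was higher in both clones for FN1 and COL6A2 (11.7% of all genes) and lower for 0 members (8.45%). The changes of both clones were also set against those of both WT series with limma over all 497 genes, each library relative to the 0 h library of its own series, since the WT series stand in tables scaled separately. This test was added after seeing the data. It called 0 members and 0% of all genes at 24 and at 48 h after Benjamini-Hochberg adjustment. At an unadjusted p under 0.05 it called 0 members at either time, and 13 and 29 of all genes. The smallest adjusted p of a member by limma was 0.92 at 48 h, and the difference for ITGA6 was -0.43 with a standard error of 0.32, which does not show that clones and WT changed alike.

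**Figure D4:**
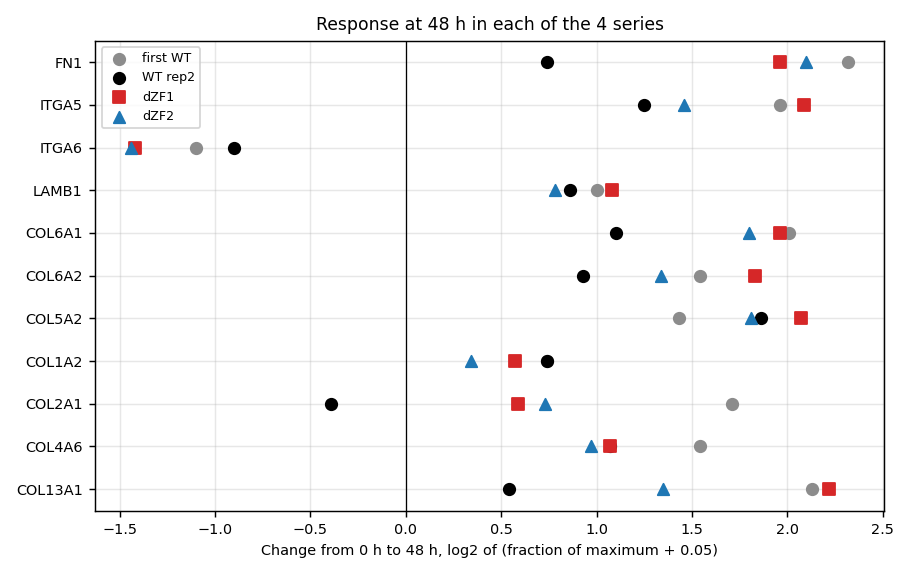
Change from 0 to 48 h, as log2 of the fraction of the maximum plus 0.05, for the 11 members in the first WT series, WT rep2, dZF1 and dZF2, 1 pair of libraries per point. For FN1 the clones at 1.96 and 2.10 lie between WT rep2 at 0.74 and the first WT series at 2.32, for ITGA6 both clones lie below both WT series, and COL2A1 is negative in WT rep2 only.

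SP5 peaks near these genes were counted beside those near all listed genes. The authors deposited 542 peaks called against a control from cells without Wnt3a and 540 called against a control from cells with Wnt3a, and the headers of both lists name the same ChIP library, whose name carries h9 where the labels give H1. The authors describe SP5 ChIP-Seq on cells kept with or without Wnt3a for 24 h, so no peaks were mapped at 48 h. A summit lay within 100000 bases of the start site of 6 of 37 members, or 16.2%, against 10.1% of 10687 listed genes that could be placed in GENCODE on GRCh37. No member had a summit within 10000 bases, against 2.08% of all placed genes, and 0 of 37 is near that share. The nearest was in an intron of HSPG2, 16182 bases downstream of its start, at chr1:22247216-22248576, with 38 tags and a false discovery rate of 35.09%. The LAMA4 peak, 26208 bases downstream in an intron, had 16 tags and a rate of 74.4%.

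The only peak near a member that stands in both lists was that of ITGA5. It lay at chr12:54784469-54785538, 27992 bases downstream of the ITGA5 start and past the end of that gene, in an exon of the neighbouring gene ZNF385A. It had 51 tags, with a false discovery rate of 8.22% against the control with Wnt3a and 25.27% against the other control. The peaks near COL9A3, COL27A1 and ITGA7 lay upstream, at -52391, -56624 and -77221 bases from the start sites, with rates of 70.48%, 46.2% and 73.6%. No peak near a member had a rate of at most 5%, and 1.05% of all placed genes had such a peak within 100000 bases.
The 101 bases around the summits of the HSPG2 and ITGA5 peaks are given on the plus strand of GRCh37, with GGGCGG and GGGAGG of either strand in capitals.
HSPG2 peak, chr1:22247571-22247671: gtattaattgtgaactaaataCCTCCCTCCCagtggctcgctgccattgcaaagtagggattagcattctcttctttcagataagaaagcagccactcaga
ITGA5 peak, chr12:54785008-54785108: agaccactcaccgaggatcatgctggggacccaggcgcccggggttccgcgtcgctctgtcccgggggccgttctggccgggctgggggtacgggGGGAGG
Neither window holds GGGCGG, while the HSPG2 window holds 2 GGGAGG and the ITGA5 window 1.

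In GENCODE, 28 of the 37 members are overlapped by a gene on the opposite strand, among them ITGA6, ITGA5, LAMA4 and the pair COL4A1 and COL4A2. The library kit keeps strand, but whether strand was used in the counting is not given in the sources used here, so reads of such partners may be included.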

How the data were processed

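RNA-Seq of H1 cells and SP5 ChIP-Seq were analysed from deposited tables. The authors aligned RNA reads to hg19 with TopHat and computed RPKM with Cuffdiff. They deposited RPKM to 1 decimal for genes reaching at least 4.0. In the table of 497 genes, the authors deposited each WT rep2 level as a fraction of the gene's maximum in that series, and each clone level as a ratio to the same maximum. The submitters' processing notes name Bowtie 0.12.7, SAMtools 0.1.12a, MACS 1.4.2 and Cuffdiff. For each peak the authors deposited the count of tags, the score, the fold enrichment and the percent false discovery rate. Deposited tables give no read totals, so depth and its precision are unknown.

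Members were chosen by symbol, with earlier results of these data known, as were all lists, limits and named genes (every member in the clone table, every member changed 2-fold, the 3 highest of each family, assembly partners, and members near a peak). Groups followed the labels. Changes were computed with a pseudocount of 1 RPKM, or 0.05 for fractions and ratios, and counted at 2-fold and 1.5-fold. Each series has 1 library per time, so changes within a series carry no test. The changes of 2 clones and 2 WT series from their own 0 h libraries were compared with limma 3.58.1, added after seeing the data; each series is 1 sample, and the spread between them may be technical. Peaks were placed against GENCODE release 44 mapped to GRCh37, with 37 of 37 members found, and promoters came from RefSeq (GRCh38.p14). The list of collagen-processing genes holds COLGALT1 under its older symbol as well. Values of 1 member are not reported here. Other pseudocounts, filters, limits, scalings and distances were tried. Steps were tested on simulated data with Python 3.11.15, numpy 2.4.6 and pandas 2.3.3. Columns of the authors' own comparisons and a shortened copy of the fractions were not used.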

Additional observations from a re-analysis of the deposited data

How the results depend on the processing

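Of 146 alternatives over 26 results, 87 stayed within 1.5 times a count or, for a median, within the spread between series, and 59 did not. The share of all listed genes under the same setting stands in parentheses. In the first WT series, a pseudocount of 0.1 gave 1 member higher at 12 h (1.87%). One of 5 gave 0 higher at 24 h (1.08%), and 5 higher (2.22%) and 1 lower (0.893%) at 48 h. Only members reaching 10 RPKM gave 0 lower at 12 h (0.328% of such genes) and at 24 h (0.845%). They gave 6 higher (3.97%) and 1 lower (2.07%) at 48 h. A 1.5-fold limit gave 1 higher at 12 h (4.03%), and 7 higher (6.98%) and 3 lower (5.29%) at 24 h. Without LAMA4, a setting chosen after seeing the data, 0 were lower at 12 and 24 h.

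For the clones, percentages are shares of all 497 genes under the same setting, higher genes before lower genes where 2 stand together. In dZF1, the members past 1.5-fold at 0 h became 1 at a pseudocount of 0.2 (6.04% and 8.85%). They became 1 at 2-fold (3.62% and 5.23%) and 7 at the lowest limit tried (20.9% and 29.4%). At 12 h they became 0 (9.46% and 12.3%), 0 (5.84% and 6.84%) and 5 (26.6% and 28.6%) in the same order. At 24 h, 1 was higher (28.6%) and 1 lower (10.3%) after scaling to the series' own start, and 2 were higher at the lowest limit (43.3%). Of the lower members, 1 was left at a pseudocount of 0.2 (10.9%) and at 2-fold (4.63%). At 48 h, 6 were higher (27.2%) and 0 lower (18.3%) after scaling to the series' own start, and 1 higher (9.86%) and 0 lower (5.84%) at 2-fold. The lowest limit gave 7 higher (34.0%), and a pseudocount of 0.2 gave 0 lower (13.1%). For dZF2 the count at 0 h became 2 at a pseudocount of 0.01 (17.1% and 20.3%) and 6 at the lowest limit (25.4% and 30.6%). It became 0 at a pseudocount of 0.2 (9.26% and 10.7%), after the shift by the median of all genes (17.1% and 15.3%) and at 2-fold (5.84% and 7.85%). At 12 h it became 1 at a pseudocount of 0.2 (11.3% and 14.9%) and after the median shift (17.1% and 17.1%). It became 0 when scaled to the own start (15.1% and 12.3%) and at 2-fold (6.64% and 8.05%), and 4 at the lowest limit (28.8% and 31.2%). At 24 h, 1 was higher (28.2%) and 2 lower (27.2%) after the median shift, and 0 higher at 2-fold (22.3%). The lowest limit gave 7 higher (48.3%) and 2 lower (27.2%) there. At 48 h, 4 were higher after scaling to the own start (28.2%), 0 at 2-fold (11.3%) and 2 at the lowest limit (33.6%). In the other direction 1 was lower at a pseudocount of 0.01 (20.9%), after the median shift (21.3%) and at the lowest limit (30.8%).

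The median log2 ratio of both clones to WT rep2 was -0.28 at 0 h, and between -0.33 and -0.10 with 1 clone left out. It was between -0.26 and -0.25 at 12 h, between 0.02 and 0.46 at 24 h and between 0.11 and 0.39 at 48 h in the same way. Relative to each series' own 0 h library it became -0.05 at 12 h and 0.52 at 48 h. For 24 h, where the reported median is 0.28, that scaling gave 0.58 and the median shift gave 0.04. The members with a peak near their start became 0 within 2000 and 10000 bases, 3 within 50000 bases, 1 for peaks in both lists and 0 at a false discovery rate of at most 5%. The shares of all placed genes under these settings were 1.41%, 2.08%, 5.77%, 3.77% and 1.05% in the same order. The causes were not tested. Pairing each library with the 0 h library of its own series, limma called 0 members at 24 and 48 h.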

Other observations

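Matrix genes outside the collagen, laminin and integrin families were also in the table of the clones, 9 of them from the lists of matrix and processing genes. THBS2, a thrombospondin of the matrix, was at 0.73, 0.91, 1.00 and 0.79 of its maximum in WT rep2 at 0, 12, 24 and 48 h. It was at 0.63, 1.01, 1.78 and 0.39 in dZF1 and at 0.76, 1.27, 2.92 and 0.47 in dZF2. Both clones were thus above WT rep2 at 24 h and below it at 48 h. LEPREL1, a collagen prolyl 3-hydroxylase, was at 1.86 in dZF1 and 1.84 in dZF2 at 48 h, where WT rep2 was at 1.00. TNC, FBN2 and MATN3 were at 1.49, 1.69 and 1.75 in dZF1 and at 1.4, 1.44 and 1.56 in dZF2 at the same time. The proteases MMP2 and ADAMTS1 were instead level with WT rep2 at 48 h, with log2 ratios of 0.17 and 0.14 in dZF1 and -0.08 and -0.07 in dZF2, and were higher in both clones at 24 h, with 0.74 and 0.68 in dZF1 and 0.96 and 0.91 in dZF2 against 0.38 and 0.34. VCAN and ADAM19 were below WT rep2 in both clones at 48 h, at 0.51 and 0.93 in dZF1 and 0.46 and 0.92 in dZF2. Of all 497 genes, 21.7% in dZF1 and 21.9% in dZF2 were at least 1.5-fold higher then. LEPREL1, TNC, FBN2 and MATN3 also rose in the first WT series, with log2 changes of 1.88, 3.28, 2.04 and 2.19 at 48 h. Against both WT series, limma called 0 of all 497 genes at 48 h. The 9 genes were named after their values were seen, and each value is 1 library.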
